A study of Mus musculus with 30 samples.

Results

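H3K27ac peaks of Tnm2 cells grown with UNC0638 were compared with those of Tnm2 cells grown with DMSO, gene by gene. H3K27ac is acetylated lysine 27 of histone H3. Members were chosen by the sample labels and are the 4 Tnm2 samples immunoprecipitated for H3K27ac, 2 with each treatment, of 30 samples in the series. The remaining samples held H3K27ac of a second line, CK1750 (3 with DMSO and 2 with UNC0638), as well as H3K9me2 and input DNA of both lines, and of these only the CK1750 H3K27ac peaks were set beside the Tnm2 values. By their titles the CK1750 samples came from 2 control replicates, 1 of them sequenced more than once, and from 1 treated replicate. Tnm2 is a line of mouse lung adenocarcinoma cells, which the study describes as low in the surface antigen Sca-1. Control cells received DMSO, the solvent, and treated cells received 1 µM UNC0638, with fresh drug once during culture, and both were grown in medium with serum. Neither the labels nor the study's methods give the genotype of Tnm2, or say whether it is 1 clone.

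Each treatment had 1 list of peaks, to which the labels assign both of its samples. No spread between replicates therefore exists for any value, and no difference was tested. Which libraries entered a list and how deeply they were sequenced are unknown. The DMSO list held 30641 peaks and the UNC0638 list 18794. A peak's score is -10 log10 of its P value as the peak caller gave it, with a lowest possible value of 50. A score also depends on depth and control. Scores were therefore used as ranks within a list (rank 1 is the highest score) and never read as a change in acetylation. With DMSO the median score was 140.11 and with UNC0638 it was 119.28, while the median peak width was 831 bp and 1040.5 bp. Shares carry a Wilson 95% interval, and this measures the error of counting alone.

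UNC0638 inhibits G9a and Glp, the enzymes encoded by Ehmt2 and Ehmt1, which place methyl groups on lysine 9 of histone H3 (H3K9me2), a mark of silent chromatin. Acetylation of lysine 27 is placed by the acetyltransferases Ep300 and Crebbp at active promoters and enhancers, where it is removed by histone deacetylases. Most housekeeping promoters in mammals lie in CpG islands and carry H3K27ac in nearly every cell, whereas many inducible and tissue genes have promoters with few CpG dinucleotides.

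To keep the shorter treated list from deciding the outcome, the DMSO list was cut to its 18794 highest-scoring peaks, the lowest of which scored 103.28. This is called the equal-number list. A promoter was the 1 kb on each side of any annotated transcription start site (TSS) of 1 of 21911 protein-coding genes. A promoter was kept where both full lists had a peak. It was lost where the equal-number DMSO list had a peak and the UNC0638 list had none. It was gained where the UNC0638 list had a peak and the equal-number DMSO list had none. Some gained promoters had a weaker peak further down the full DMSO list. The rest had no DMSO peak in the promoter window. These promoters are called gained with no DMSO peak, although a DMSO peak could lie outside the window.

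The following 6 promoters are examples picked from lists described below, 3 lost ones of growth arrest and death genes and 3 gained ones of the matrix protease system. They were not drawn to represent their classes, whose medians differ by less and are given after the sequences. Each run covers 250 bases before to 50 after the TSS, is read 5′ to 3′ on the gene's strand, and comes from RefSeq for build GRCm38.p6. Capitals mark CpG dinucleotides. All 6 genes lie on the + strand.
Cdkn1a, chr17:29093519-29093818, lost: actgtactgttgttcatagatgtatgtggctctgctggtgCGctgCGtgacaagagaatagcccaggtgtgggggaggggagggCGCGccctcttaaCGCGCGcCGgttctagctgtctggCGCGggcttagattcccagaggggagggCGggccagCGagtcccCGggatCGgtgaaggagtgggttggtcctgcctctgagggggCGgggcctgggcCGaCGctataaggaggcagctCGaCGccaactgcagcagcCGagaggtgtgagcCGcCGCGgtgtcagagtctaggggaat
Plk2, chr13:110394794-110395093, lost: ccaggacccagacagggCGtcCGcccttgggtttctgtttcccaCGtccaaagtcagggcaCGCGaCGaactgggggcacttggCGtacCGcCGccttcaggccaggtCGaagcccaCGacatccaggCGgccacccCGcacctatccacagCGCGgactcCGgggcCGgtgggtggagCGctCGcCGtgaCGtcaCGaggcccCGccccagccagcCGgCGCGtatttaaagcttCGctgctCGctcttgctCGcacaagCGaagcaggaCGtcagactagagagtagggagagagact
Fas, chr19:34290409-34290708, lost: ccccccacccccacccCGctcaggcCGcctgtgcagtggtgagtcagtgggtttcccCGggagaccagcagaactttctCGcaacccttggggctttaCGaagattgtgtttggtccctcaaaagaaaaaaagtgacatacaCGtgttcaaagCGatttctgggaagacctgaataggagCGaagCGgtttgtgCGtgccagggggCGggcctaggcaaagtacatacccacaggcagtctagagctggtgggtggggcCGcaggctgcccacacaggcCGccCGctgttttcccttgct
Mmp13, chr9:7272264-7272563, gained: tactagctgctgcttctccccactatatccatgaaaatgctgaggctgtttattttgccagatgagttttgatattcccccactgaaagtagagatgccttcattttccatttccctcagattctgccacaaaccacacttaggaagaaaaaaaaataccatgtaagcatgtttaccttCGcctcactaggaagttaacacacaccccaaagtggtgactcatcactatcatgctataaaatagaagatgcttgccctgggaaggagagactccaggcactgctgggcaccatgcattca
Timp1, chrX:20869916-20870215, gained: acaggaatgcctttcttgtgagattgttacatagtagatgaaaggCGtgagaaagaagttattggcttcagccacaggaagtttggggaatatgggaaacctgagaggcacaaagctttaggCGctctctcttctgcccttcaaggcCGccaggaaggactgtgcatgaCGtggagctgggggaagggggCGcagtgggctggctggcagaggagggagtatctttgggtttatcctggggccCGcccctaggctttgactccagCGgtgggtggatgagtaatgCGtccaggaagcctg
Mmp14, chr14:54431348-54431647, gained, with a weaker DMSO peak: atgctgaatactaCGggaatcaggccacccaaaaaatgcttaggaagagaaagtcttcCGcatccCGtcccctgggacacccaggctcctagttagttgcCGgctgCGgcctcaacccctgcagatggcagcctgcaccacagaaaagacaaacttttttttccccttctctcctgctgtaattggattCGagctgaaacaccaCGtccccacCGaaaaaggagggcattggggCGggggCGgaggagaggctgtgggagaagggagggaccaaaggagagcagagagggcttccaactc
The 3 lost promoters held 23 (Cdkn1a), 31 (Plk2) and 14 (Fas) CpGs, with a GC content of 64.7%, 66.3% and 59.0%. Mmp13 held 1, Timp1 8 and Mmp14 10, with a GC content of 43.7%, 55.0% and 56.0%. Among the 16522 genes matched to such a window the median was 15 CpGs. It was 23 for promoters kept and present in the equal-number list, 20 for lost ones, 19 for those gained over a weaker DMSO peak, 17 for those gained with no DMSO peak, and 5 for genes with no peak. Beyond rank 7500, a cut explained below, kept and lost promoters came to 21 and 20. Of the 103 matched promoters gained with no DMSO peak, 18 had 5 or fewer CpGs (17.5%, interval 11.3 to 25.9%), against 5.73% of kept and 8.65% of lost promoters.

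Of 9238 genes with a promoter peak in the equal-number DMSO list, 8270 (89.5%, interval 88.9 to 90.1%) still had one with UNC0638 and 968 (10.5%, 9.87 to 11.1%) were lost. Of 8725 genes with an UNC0638 promoter peak, 455 (5.21%, 4.77 to 5.70%) were gained. Among these, 132 (1.51%, 1.28 to 1.79%) had no promoter peak in the longer DMSO list either. The number of promoters with a peak was thus 9238 with DMSO and 8725 with UNC0638 for the same number of peaks. With the full DMSO list, 1869 of 10462 promoters (17.9%) were lost. In CK1750, the equal-number lists gave 431 lost of 10476 (4.11%, 3.75 to 4.51%) and 428 gained of 10473 (4.09%, 3.72 to 4.48%). Those lists were longer, at 24601 peaks each with a lowest DMSO score of 56.57, against 18794 and 103.28 in Tnm2. CK1750 counts here and below are therefore not matched to Tnm2 in list length, and a difference in counts cannot be told apart from one of length. Of the 968 promoters lost in Tnm2, 808 were kept in CK1750, 36 were lost there and 78 had no CK1750 peak.

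Loss depended on where a promoter stood in the DMSO list. Of 2214 promoters whose best DMSO peak ranked within the first 2500, 5 were lost (0.226%). Between ranks 7501 and 10000 it was 92 of 1230 (7.48%), and between 15001 and 18794 it was 439 of 802 (54.7%, 51.3 to 58.2%). Up to rank 7500, 29 promoters were lost, and beyond it 939 of 3725 (25.2%). Gains followed the same order in the UNC0638 list, with 2 of 2156 promoters within its first 2500 ranks and 213 of 726 (29.3%) between 15001 and 18794. A gene list whose promoters rank low therefore has more to lose. List counts below are to be read against 10.5% and, beyond rank 7500, against 25.2%, and no count was tested. The 25.2% pools bands from 7.48% to 54.7%, so it is too low a background for a list whose members rank near the end.

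**Figure D1:**
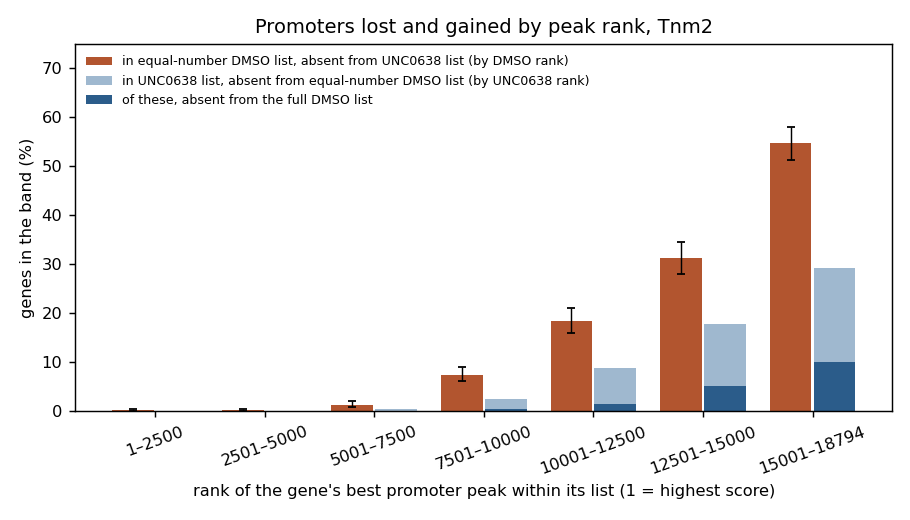
Share of Tnm2 promoters lost by rank of the best DMSO promoter peak (first bar of each band, with the Wilson 95% interval for counting error), and share gained by rank of the best UNC0638 promoter peak (second bar, whose dark part had no promoter peak in the full DMSO list). The y axis is percent of genes in the band, the x axis the rank within the list, and loss climbs from 0.226% in the first band to 54.7% in the last.

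A lost promoter peak was in most cases not a peak that had slid out of the window. The 968 lost promoters shared 890 peaks. Of these, 21 overlapped an UNC0638 peak that lay outside the window, 89 had an UNC0638 peak within 5 kb, and 256 had none within 50 kb, with a median distance of 24128 bp. Kept promoters were nearly always the same sites in both lists. The best DMSO peak and the best UNC0638 peak overlapped in 8336 of 8593 kept genes (97.0%).

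Genes of the p53 pathway, which arrest the cycle, repair DNA or start cell death after damage, had the highest share of losses among lists with at least 20 promoter peaks. Of 22 members with a peak in the equal-number DMSO list, 7 were lost (31.8%, against 10.5% of all genes), and 0 were gained. Beyond rank 7500 it was 7 of 15 members against 25.2% of all genes. There some lists with fewer such promoters stood higher, such as forkhead factors (3 of 4) and splicing factors (3 of 5). All 7 lost p53 promoters are named here, 3 more than the naming rule gives, a choice made after their values were seen. Cdkn1a, the cyclin-dependent kinase inhibitor p21, had a DMSO peak at chr17:29094038-29095205, just downstream of the window printed above, with a score of 235 and rank 10557. The nearest UNC0638 peak lay 39678 bp away. Plk2, a kinase induced by stress, had a peak over its TSS (chr13:110394397-110395664) with a score of 197 and rank 12011, and its neighbourhood (the gene with 50 kb on each side) went from 1 peak in the equal-number list to 0. Fas, the death receptor, had a score of 168 and rank 13527, and its neighbourhood also went from 1 to 0. The 4 others were Aen, a nuclease of apoptosis (score 156), Gadd45g, a growth arrest gene (154), Cdkn2a, the locus of p16 and Arf (145), and Sesn1, a stress-induced regulator of growth signalling (124).

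Promoters of the p53 list ranked lower than most with DMSO, at a median rank of 9991.5 against 5937.5 over all genes. Its 15 kept members had a median rank shift of 10.4 points, where the shift is the percentile of a promoter among the 8593 kept genes with UNC0638 minus that with DMSO. Over all kept genes 1626 (18.9%) shifted up by 10 points or more and 1580 (18.4%) shifted down, with a median of 0.29. Of the 15 kept p53 members 8 shifted up and 2 down. Zmat3, a p53-induced RNA-binding protein, went from rank 12158 to 6892 (shift 27.2). Mdm4, which restrains p53, went from rank 4077 to 6236 (-13.6). Trp53 itself, which encodes p53, had a shift of -13.0 and Mdm2, its ubiquitin ligase, -5.77. Bax and Tnfrsf10b, a pair of death genes, had DMSO peaks below the equal-number rank (scores 82.5 and 53.5) and none with UNC0638. The median of the list is that of survivors, since a low-ranking promoter that went down further is counted as lost. In CK1750, 0 of 24 members were lost, and Cdkn1a had scores of 646 with DMSO and 526 with UNC0638 there (shift -3.37). The count in Tnm2 was 7 with a window of 2.5 kb and with neighbouring peaks merged, 4 with the most upstream TSS alone (without Cdkn1a, Gadd45g and Sesn1), and 1 (Cdkn1a) of 13 when only peaks with a score of at least 100 were used. That setting leaves 10914 peaks in the equal-number list, so a promoter with a lower DMSO rank leaves the comparison and cannot count as lost.

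**Figure D2:**
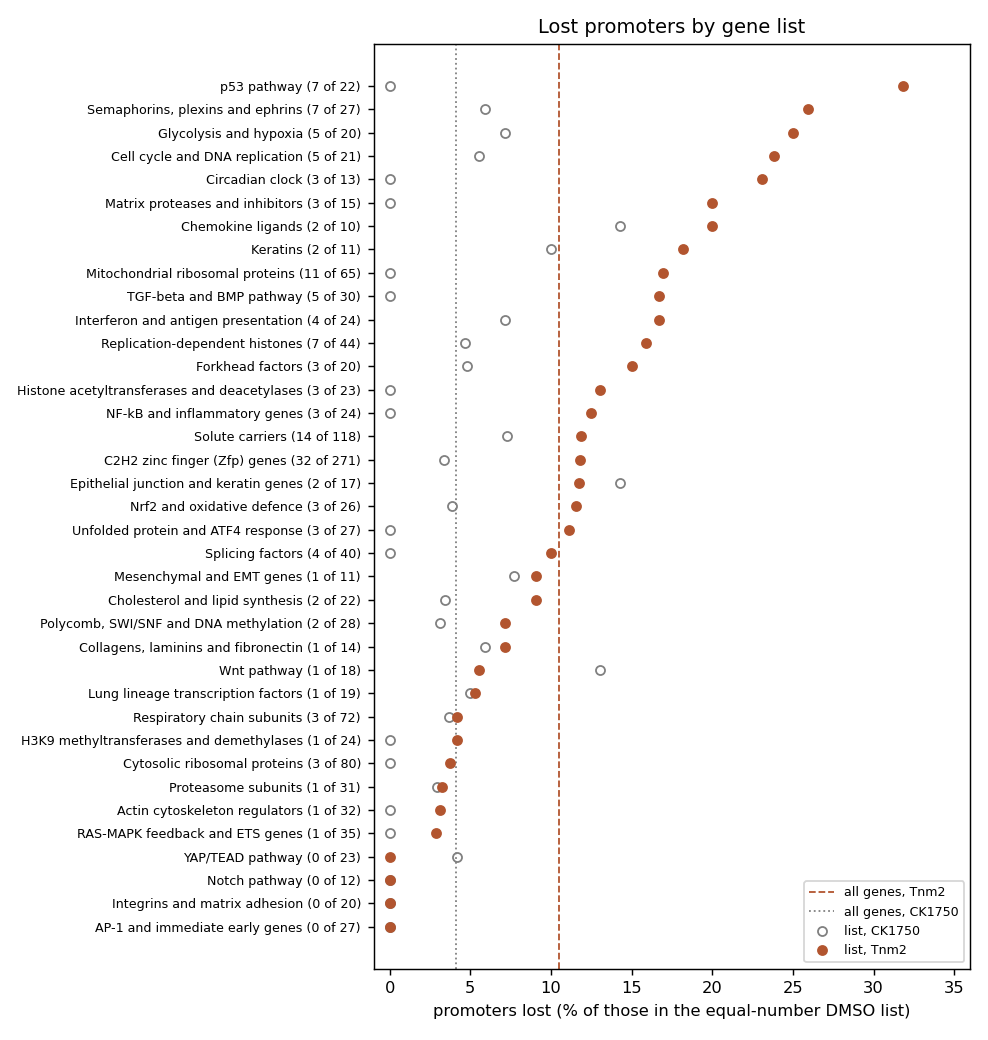
Share of promoters lost with UNC0638 for gene lists with at least 10 promoters in the equal-number DMSO list (y axis, list with its Tnm2 numbers, and x axis, percent of those promoters), with filled points for Tnm2, open points for CK1750, and vertical lines at the share over all protein-coding genes (dashed for Tnm2, 10.5%, and dotted for CK1750, 4.11%). The p53 pathway stands at 31.8% lost, while integrins, the YAP/TEAD and Notch pathways and AP-1 genes stand at 0.

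Guidance receptors and ligands lost 7 promoters, all from weak DMSO peaks. Semaphorins, plexins, ephrins and Eph receptors steer cell movement by contact and short-range signals. Of 27 promoters 7 were lost (25.9%, against 10.5%), and beyond rank 7500 it was 7 of 15. Over all genes the share lost was 31.2% between ranks 12501 and 15000 and 54.7% between 15001 and 18794. The 7 ranked between 13406 and 18630 with DMSO, so all 7 leave the comparison with scores of at least 100, where 3 other members were lost. The 4 with the highest score were the ligand Efna2 (169.92), the receptors Plxna4 (162) and Plxnb1 (136), and the Eph receptor Epha7 (129.79). Of 21 kept members 8 shifted down and 2 up, with a median of -7.66. The largest shift was that of Plxnb2, a semaphorin receptor, which had a DMSO peak with a score of 1083 at rank 1994 and an UNC0638 peak with a score of 56.9 at rank 17087 (-76.5). These were not the same peak, and with a window of 2.5 kb the shift of Plxnb2 was 0.11. In CK1750, 2 of 34 promoters of this list were lost.

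In the transforming growth factor family 4 ligands with weak DMSO peaks were lost. TGF-beta and BMP ligands bind receptor kinases that phosphorylate Smad proteins, and Id genes are direct targets. Of 30 promoters 5 were lost (16.7%, against 10.5%), and beyond rank 7500 it was 4 of 7. Those 4 were all ligands, namely Tgfb2 (score 222, rank 11015), Tgfb3 (200.22, rank 11875), Bmp2 (145, rank 14980) and Bmp4 (133, rank 15902). Each of the 4 was kept in CK1750, where 0 of 31 members were lost. The fifth was Id2, an inhibitor of differentiation, whose DMSO peak (chr12:25097833-25100032, score 597, rank 4564) overlapped an UNC0638 peak outside the window, and Id2 was not lost with a window of 2.5 kb. Bmp4 is named beyond the rule, after its value was seen. The ligand gene Inhba was kept (score 638, rank 4198, to 185, rank 6212). Every receptor and Smad of the list with a DMSO peak was kept as well, but all of them ranked within 7500, where 29 of 5513 promoters of any kind were lost, so a difference between ligands and receptors cannot be told apart from one of rank. Tgfb1 stood on the other side, with a weak DMSO peak below the equal-number rank (91.7, rank 20291) and an UNC0638 peak of 59.5 at rank 16410. Smad3, the transducer of TGF-beta, was kept but went from rank 5499 (score 503) to rank 12059 (87.6), a shift of -32.5. Smurf1, a ubiquitin ligase that degrades Smads and receptors, shifted by 20.1, while its neighbourhood went from 14 peaks to 8 (a difference of 2 the other way with scores of at least 100). With peaks of score 100 or more only, 2 members of the list were lost.

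Hypoxia, clock and cell cycle genes lost promoters at more than the share over all genes, but their promoters also ranked lower with DMSO. Their median DMSO ranks were 12191.5, 7393 and 8429, against 5937.5 over all genes. A difference by function therefore cannot be told apart from one of rank. Glycolysis and hypoxia genes lost 5 of 20 (25%), and beyond rank 7500 it was 5 of 15. These 5 ranked between 13457 and 15840. Over all genes the share lost was 31.2% between ranks 12501 and 15000 and 54.7% between 15001 and 18794. Pdk1, which holds pyruvate back from the mitochondria, had a DMSO score of 169 at rank 13457, P4ha2, a collagen prolyl hydroxylase, 164 at rank 13727, Egln3, an oxygen sensor, 154 at rank 14398, and Ndrg1, a stress gene, 135 at rank 15721. Around Ndrg1 the neighbourhood went from 5 peaks to 0. The other member was Gpi1 (134), an enzyme of glycolysis. Eno1, also a glycolytic enzyme, was kept with a shift of 31.4, and Vegfa, the angiogenic factor, with -12.8 (rank 968 to 2303).

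Of 13 clock genes 3 were lost (23.1%), and beyond rank 7500 it was 3 of 6. They included the repressors Cry2 (score 214) and Bhlhe41 (199), and the Cry2 neighbourhood went from 6 peaks to 2. Nfil3, a clock output factor, shifted by 31.4. Of 21 cell cycle genes 5 were lost (23.8%), and beyond rank 7500 it was 5 of 11, among them the G1 kinase Cdk4 (205, rank 11671), the phosphatase Cdc25a (136), the pocket protein Rbl2 (127) and the kinase Cdk2 (107). These 3 lists lean on weak peaks. With scores of at least 100 the lost members were 0 for glycolysis and hypoxia, 0 for the clock and 1 for the cell cycle. The CK1750 counts were 2 of 28, 0 of 16 and 2 of 36.

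Signalling genes around RAS stood high in the DMSO list and lost few promoters. Growth factor receptors act through RAS and MAP kinases on AP-1 and ETS factors, and feedback genes such as Spry1 dampen the route. Of 35 RAS-MAPK feedback and ETS genes 1 was lost (2.86%, against 10.5%), and that was Egfr, the receptor of epidermal growth factor (139, rank 15423), which had no CK1750 peak. The median DMSO rank of the list was 2722, with 26 of 35 promoters within rank 7500, and beyond that rank it was 1 of 9 against 25.2%. Erbb2, its partner receptor, was kept but went from rank 3942 (score 670) to rank 10155 (109), a shift of -36.4. Spry1, a feedback inhibitor of the route, shifted by 29.8. Of 27 AP-1 and immediate early genes 0 were lost. None of the 28 kept members shifted up by 10 points and 5 shifted down, the furthest being Jun, a core AP-1 subunit (score 1257 at rank 1578 to 315 at rank 3426, -16.2). With a median DMSO rank of 1433 the AP-1 genes stood high in the list, where few promoters of any kind were lost.

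Adhesion and mechanical signalling genes stood high too and lost few promoters. The median DMSO rank was 3680.5 for integrins, 3160 for YAP/TEAD, 2497 for actin and 3715.5 for Notch genes, against 5937.5 over all genes. Beyond rank 7500 the losses were 0 of 4, 0 of 5, 1 of 7 and 0 of 4. Integrins, which tie cells to matrix, had 0 losses of 20, and both of their gained promoters had a weaker DMSO peak (Itga2, score 64.4 at rank 25323 to 80.9 at rank 12887, and Itgb6, 95.2 at rank 19796 to 76.7 at rank 13441). Itgb3 shifted by 32.2 and Itgb5 by -24.3, so integrin genes went both ways. The YAP/TEAD pathway had 0 losses of 23, though 3 with scores of at least 100. Its target Ankrd1 shifted by 33.3 and its upstream regulator Nf2 by -19.4. Actin cytoskeleton regulators had 1 loss of 32, the tropomyosin Tpm2 (111). Of 12 Notch promoters 0 were lost. Maml2, a coactivator of Notch, had the largest downward shift in that list, from a score of 970 at rank 2371 to 83.3 at rank 12591 (-60.7), and the peaks overlapped, while its neighbourhood went from 7 to 13 peaks (16 to 13 with full lists).

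**Figure D3:**
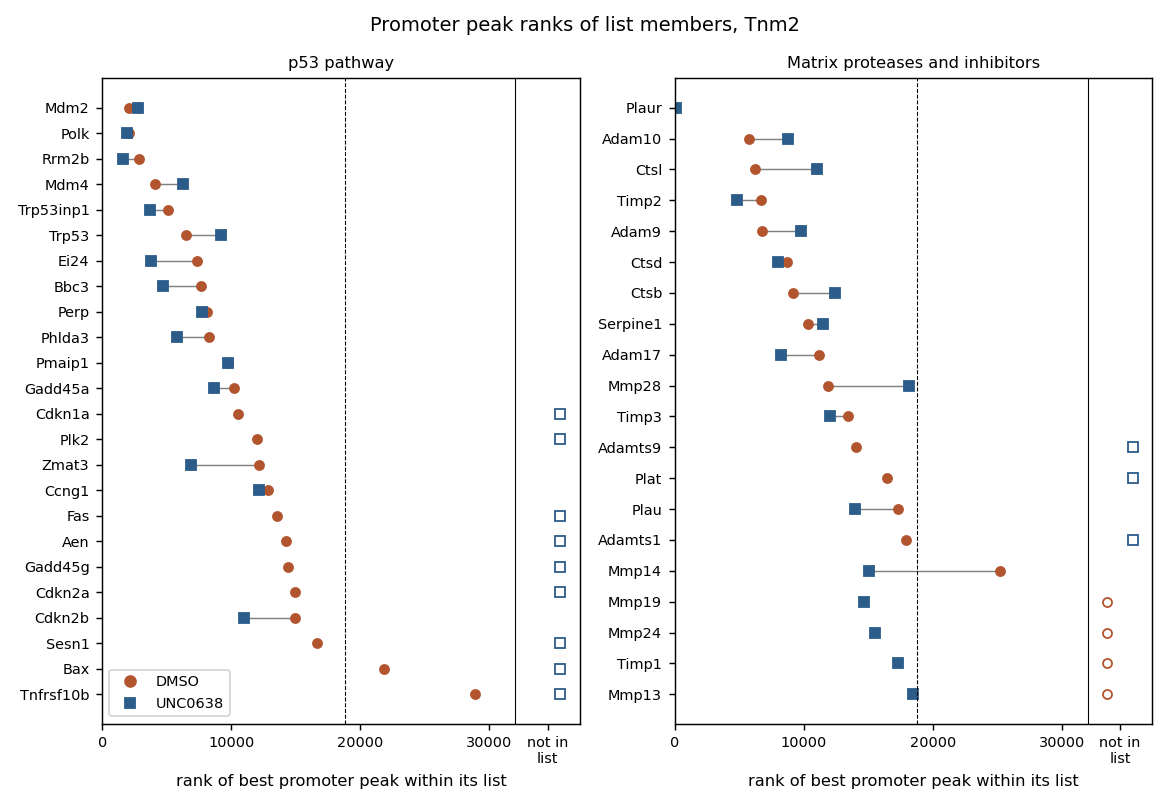
Rank of the best promoter peak in the DMSO list (circles) and in the UNC0638 list (squares) for members of the p53 pathway and of the matrix proteases and their inhibitors, with rank 1 at the left and the dashed line at rank 18794, the length of the equal-number list. Open symbols beyond the solid line are promoters without a peak in that list, which holds the UNC0638 symbols of 9 p53 members and 3 protease genes and the DMSO symbols of 4 protease genes.

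Matrix proteases and their inhibitors had the highest share of gains among lists with at least 10 UNC0638 promoter peaks. The proteases cleave collagen and other matrix proteins, and tissue inhibitors of metalloproteases (Timps) restrain them. Of 17 members with an UNC0638 promoter peak 5 were gained (29.4%, against 5.21% of all genes), and 4 of them had no promoter peak in the full DMSO list (against 1.51%). All 5 stood low in the UNC0638 list, where gains are more frequent. Beyond UNC0638 rank 12500 the list gained 5 of 7 promoters against 23.7% of all genes, and 4 of 7 with no DMSO peak against 7.72%. All 5 are named, 1 more than the rule gives, after their values were seen. Mmp19, a metalloprotease of many matrix substrates, had an UNC0638 peak over its TSS (chr10:128790760-128791405) with a score of 69.1 at rank 14637. Mmp14, the membrane-bound metalloprotease that activates others, had 66.2 at rank 15067, against 64.9 at rank 25221 with DMSO. Mmp24, also membrane-bound, had 64.0 at rank 15533, and that peak overlapped a DMSO peak lying outside its window. Timp1 had 56.1 at rank 17275. Mmp13, a collagenase that the study linked to G9a, had 51.3 at rank 18461, from a peak (chr9:7271796-7272221) that ended just upstream of the window printed above. The nearest DMSO peak was 86097 bp away, and the neighbourhood went from 0 peaks to 1.

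All 5 gains of this list, that of the inhibitor Timp1 among them, were weak peaks, between the lowest score that could be called and 69.1. With scores of at least 100 in both lists 1 member of the list was gained. Against these gains stood 3 lost promoters, the secreted proteases Adamts9 (159.81) and Adamts1 (111) and the plasminogen activator Plat (127). Of 13 kept members 2 shifted up and 5 down. Ctsl, a lysosomal protease, had -23.3, while Adam17, a sheddase, had 16.3. In CK1750 2 of 17 members were gained, Mmp13 and Mmp19 had no peak with either treatment, and Timp1 was kept (scores 55.6 and 58.4, shift 0.40).

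Mmp10, a protease on the same chromosome as Mmp13 that the study also examined, had no peak in its promoter or neighbourhood in either Tnm2 list. Ly6a, which encodes Sca-1, had a DMSO promoter peak (chr15:74998712-75000276, score 146, rank 14884) and none with UNC0638, where the nearest peak lay 2818 bp away. The study reports that UNC0638 raised Sca-1 in several lines, by more in Sca-1-low ones such as Tnm2, and raised its mRNA. Peak lists do not measure expression, so the lost peak is not a fall in Ly6a expression. Ly6a was not lost with a window of 2.5 kb and left the comparison with scores of at least 100, and its neighbourhood went from 5 peaks to 4. In CK1750 Ly6a was kept, with scores of 2045 and 1111 at ranks 1332 and 2685 (shift -11.1). Ctse, a protease of the endosome, was kept (shift 4.81). Wnt7a went from 2 neighbourhood peaks to 5 and Anxa10 from 0 to 2, neither with a promoter peak, but the full DMSO list held 4 around Wnt7a and 2 around Anxa10. The mast cell protease genes Mcpt2 and Mcpt4 each went from 5 to 3 and Mcpt8 from 6 to 3. Their windows overlap one another, and with neighbouring peaks merged the difference for Mcpt2 and Mcpt4 was 0. Lcp1 had no peak. Which of the 10 genes belonged to this list was set by the study, which looked for genes responding to the inhibitor. It used RNA sequencing, which is not among the 30 samples, and H3K9me2 chromatin, which is. The directions of the 10 genes are therefore not independent evidence.

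Matrix structural genes held a loss and several large shifts. Thbs1, a matrix glycoprotein, was lost (score 302, rank 8687), and its neighbourhood went from 1 peak to 0. Sparc, which binds collagen, went from a score of 486 at rank 5698 to 71.5 at rank 14203 (-38.3). Fn1, fibronectin, went from 605 at rank 4469 to 122 at rank 9179 (-27.4). Over all 13 kept collagens, laminins and matrix glycoproteins 3 shifted up and 5 down, with a median of -3.21.

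The labelled cell type was checked against lung and epithelial genes. Of 30 lung lineage transcription factors 19 had a promoter peak in the equal-number DMSO list. Of these 18 were kept, Nkx2-1 and Foxa2 among them, and Id2 was the loss. Such a peak was present in 17 of 34 epithelial junction and keratin genes. Among alveolar and airway genes it was 3 of 22 (5 in the full DMSO list), so most of them had none. The epithelial genes Cdh1 and Krt8 were kept too, while Epcam and Sftpc, the surfactant gene of type II cells, had no promoter peak with either treatment. Grhl2, an epithelial regulator, shifted by -18.7 and Cebpa by 14.8. Leukocyte markers had a promoter peak in 0 of 12 genes and endothelial markers in 0 of 10 with either treatment. Fibroblast markers had 1 of 10 in the full DMSO list and 0 with UNC0638. Of 24 germline genes 0 had a promoter peak in either list.

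Epithelial and alveolar genes went in both directions. Ocln, a tight junction protein, was lost (334, rank 7996), with its neighbourhood at 5 and 2 peaks, and so was the keratin Krt7 (162, rank 13863). Spint1, an epithelial protease inhibitor, was gained (79.9, rank 13007), as was Prss8 over a weaker DMSO peak. Esrp2, an epithelial splicing factor, shifted by 34.1 and F11r, a junction adhesion molecule, by -31.8. Sftpb, surfactant protein B, was gained with a score of 77.4 at rank 13333, 7686 bp from the nearest DMSO peak. Aqp5, the water channel of type I alveolar cells, went from 307 at rank 8540 to 334 at rank 3172 (39.0), and Abca3, the lipid transporter of type II cells, shifted by -31.9. Snai2, a mesenchymal regulator, was lost (203, rank 11764), and its neighbourhood went from 1 peak to 0.

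**Figure D4:**
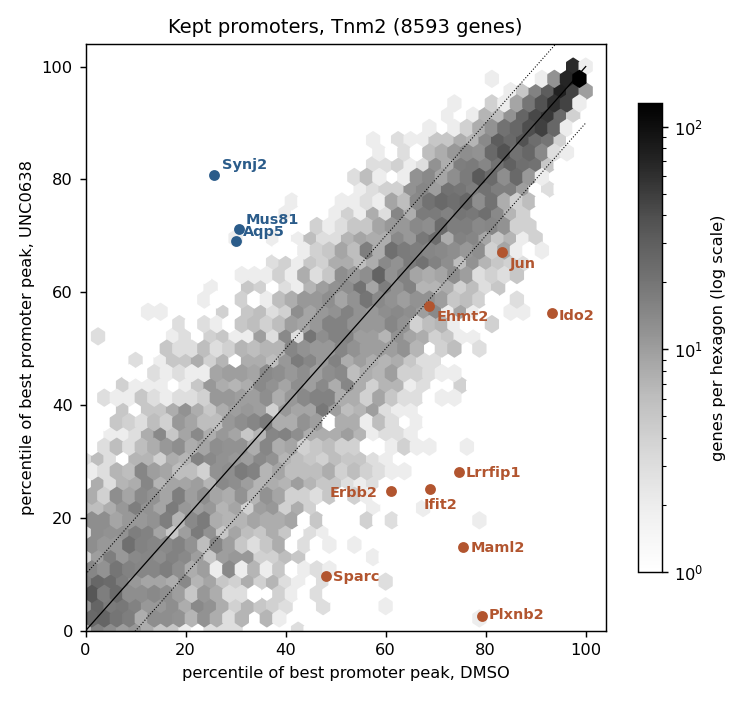
Percentile of the best promoter peak among the 8593 kept genes of Tnm2 with DMSO (x axis) and with UNC0638 (y axis), as hexagons shaded by number of genes on a log scale, with named genes as points. The solid diagonal is no shift and the dotted lines are 10 points on each side, outside which lie 1626 genes above and 1580 below.

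Of 24 interferon and antigen presentation genes 4 were lost (16.7%, against 10.5%, and 4 of 11 beyond rank 7500), namely Tapbp, which loads peptides on MHC class I (327, rank 8123), the factors Irf1 (141) and Irf3 (135), and the RNA sensor Ddx58 (108). Ifit2, an interferon-induced gene, was kept but went from a score of 811 at rank 3055 to 110.05 at rank 10063 (-43.8), while the receptor Ifngr2 shifted by 30.0. Of 24 NF-kB and inflammatory genes 3 were lost (12.5%, near the 10.5%, but 3 of 7 beyond rank 7500). They were Csf2 (122), the NF-kB inhibitor Tnfaip3 (109) and the chemokine Ccl20 (109). Cxcl3 was gained (78.9, rank 13166).

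The target enzymes of UNC0638 kept their own promoters. Ehmt2 went from a score of 807 at rank 3081 to 244 at rank 4655 (-11.2), and Ehmt1 from 473 at rank 5836 to 227 at rank 5046 (7.63). Of 24 promoters of H3K9 methyltransferases and demethylases 1 was lost, that of Setdb1, an enzyme that trimethylates H3K9 (234, rank 10573). Suv39h2, also a methyltransferase, had 60.2 at rank 26399 with DMSO and 109.97 at rank 10075 with UNC0638 (24.5). Setdb2 shifted by -21.2. The demethylase Kdm3a shifted by -9.30 and Phf8 by 1.02, both under the 10 points. Gapdh, a housekeeping gene, shifted by 6.59. Among Polycomb, SWI/SNF and DNA methylation genes 2 of 28 were lost, Smarcb1 (233) and Dnmt3b (134). Of 34 neighbourhoods of that list, 13 had fewer peaks and 3 more, against 29.3% and 24.4% of all neighbourhoods.

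Other regulatory lists lost promoters at 11.1 to 15.0%, near the 10.5% over all genes and with 3 losses each. Beyond rank 7500, against 25.2%, it was 3 of 7 for acetyltransferases and deacetylases and 3 of 7 for oxidative defence. It was 3 of 10 for the unfolded protein and ATF4 response and 3 of 4 for forkhead factors. Of 23 promoters of histone acetyltransferases and deacetylases 3 were lost, the deacetylase Hdac3 (165, rank 13693) and the sirtuins Sirt2 (153) and Sirt3 (111), while Ep300 and Crebbp were kept. The peak of Sirt3 is shared with Psmd13. Of 26 genes of oxidative defence 3 were lost, G6pdx, which makes NADPH (249, rank 10110), the superoxide dismutase Sod2 (164) and Gclc of glutathione synthesis (128). Osgin1, an Nrf2 target, shifted by 30.6. Of 27 genes of the unfolded protein and ATF4 response 3 were lost, the chaperones Pdia4 (133) and Pdia6 (119.94) and Chac1 (108), and Trib3 shifted by -28.9. Of 20 forkhead factors 3 were lost, Foxd2 (159.88), Foxc1 (143) and Foxa3 (103.88), and Foxo3 shifted by -29.7.

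Housekeeping complexes gave different counts. Mitochondrial ribosomal protein genes lost 11 of 65 (16.9%, against 10.5%), led by Mrpl39 (263, rank 9667). Their median DMSO rank was 7683, and beyond rank 7500 the count was 11 of 34. Cytosolic ribosomal protein genes lost 3 of 80 (3.75%), which were Rplp1 (280.13), Rpl14 (215) and Rps21 (123), with a median rank of 3515. Respiratory chain genes lost 3 of 72 (4.17%) at a median rank of 5820, and proteasome genes 1 of 31 (Psmd13, 111). Splicing factors lost 4 of 40 (10%, near the share over all genes), namely Sf3b6 (420, rank 6540), Sf3b2 (302), Sf3a3 (153) and Sf3a1 (119.51), which encode parts of the U2 particle. Beyond rank 7500 the count was 3 of 5. The list held 8 SF3 genes with a promoter peak, of which the other 4 were kept, a grouping made after the values were seen. Replication-dependent histone genes lost 7 of 44 (15.9%, and 7 of 26 beyond rank 7500), and Hist1h4m was kept with -55.4 (641 to 59.5). Their genes lie in clusters and share peaks, so these counts are not of separate sites.

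Among metabolic and transport genes, cholesterol and lipid synthesis lost 2 of 22, among them Scap, a sterol sensor (129), and gained 2 of 22, Dhcr7 (71.2, rank 14241) and Fdps, an early enzyme of the route, over a weaker DMSO peak (55.4 at rank 27974 to 104.1 at rank 10558). Solute carriers lost 14 of 118 (11.9%) and gained 14 of 118 (11.9%, against 5.21%), 5 of them with no DMSO peak. Beyond UNC0638 rank 12500 they gained 9 of 22, against 23.7%. Slc9a5, a sodium/proton exchanger, went from 102 at rank 18922 to 184 at rank 6244 (42.8), but these were not the same peak, and with a window of 2.5 kb the shift of Slc9a5 was 13.8. In CK1750 10 of 137 were gained. Of 271 C2H2 zinc finger genes 32 were lost (11.8%), and of 253 with UNC0638 peaks 14 were gained (5.53%), both close to the share over all genes. Tcf7l1, a repressor in the Wnt pathway, was lost with a high score (435, rank 6352), the single loss among 18 Wnt promoters.

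Without regard to function, the lost promoters with the highest DMSO score and no UNC0638 peak within 1 kb were Sfi1 (1133, rank 1874), Zfp950 (574), Cdk10 (567), Ccdc93 (528), Ciao2b (491), Hacd3 (475), C2cd3 (472), Glmp (471), Fam71f1 (470.18) and Rnf185 (463). Sfi1, a centrosome gene, had a DMSO peak 10891 bp wide (chr11:3138167-3149057) inside the gene, it was kept when the most upstream TSS alone was used, and it had no CK1750 peak. The other 9 were kept in CK1750. Cdk10, a cyclin-dependent kinase, had its peak over the TSS (chr8:123224032-123225663). C2cd3 was not lost with a window of 2.5 kb.

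The gained promoters with the highest UNC0638 score and no DMSO peak within 1 kb scored far lower. They were Gne, the key enzyme of sialic acid synthesis (133, rank 8479), Ago4, a small RNA binding protein (119.63), Fry (117), Pilra (115), Mospd1 (110.02), the kinase Pak6 (108), Taf6l (92.4), the cell cycle regulator Fzr1 (91.1), Pitpnm3 (89.8) and the anion exchanger Slc4a9 (88.7). Around Mospd1 the nearest DMSO peak was 272496 bp away. Pilra had 2 near-identical copies of its promoter elsewhere in the genome, so its reads may not be placed with certainty, whereas the other 31 promoters examined for copies had 0. Gne and Fry were not gained with the most upstream TSS alone, and Taf6l and Slc4a9 were not gained with a window of 2.5 kb.

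Among kept promoters whose percentile, averaged over both lists, was at least 50, large downward shifts were those of Lrrfip1 (rank 2467 to 9458, -46.4), Plscr3 (score 921 to 128, -42.1), the adenylate kinase Ak3 (2035 to 7138, -37.9), the tryptophan-degrading enzyme Ido2 (626 to 4800, -36.8) and the small GTPase Arl4c (2760 to 7898, -35.0). Large upward shifts were those of Synj2 (9361 to 1859, 55.1), Sh3tc1 (7404 to 2155, 41.6), the nuclease Mus81 (8437 to 2939, 40.6), the spliceosome protein Snrpg (7880 to 2606, 40.3) and the kinase Tnk2 (4686 to 797, 35.97). For Synj2 and Tnk2 the best peaks of the lists were at different TSSs, and with the most upstream TSS alone Synj2 had -22.8 and Tnk2 7.98. Of 1536 genes that shifted down in Tnm2 and were kept in both lines, 277 shifted down and 259 shifted up in CK1750, and of 1555 that shifted up, 300 shifted up and 255 down.

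Of 15622 gene neighbourhoods with a peak in either equal-number list, 4582 had fewer peaks with UNC0638 (29.3%), 3812 more (24.4%) and 7228 the same number (46.3%). The equal-number DMSO list had a peak in 15270 neighbourhoods, of which 580 were emptied (3.80%), and UNC0638 gave a first peak to 352 of 15042 (2.34%). With full lists 11338 had fewer and 764 more. The steepest downward differences were Carns1 (19 to 13 peaks), Ndst1 (18 to 12), Smurf1 (14 to 8), Gjd3 (9 to 3) and Gcnt1 (8 to 2). Steep upward ones were those of Myof, a membrane repair protein (11 to 18), Pfdn1 (15 to 21), Atp6v0a1 (10 to 16) and Maml2 (7 to 13). With full lists these 4 went the other way (23 to 18, 28 to 21, 18 to 16 and 16 to 13), and with scores of at least 100 the difference was 2 for Smurf1 and 0 for Ndst1 and Gcnt1. For Gjd3 it was 0 with 20 kb flanks.

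Genes that lie in a cluster share neighbourhood peaks, so their counts are not of separate sites. Of 12 neighbourhoods of mast cell proteases and granzymes 10 had fewer peaks, with 37 peaks in sum against 19. Only 5 had fewer with 20 kb flanks. Of 67 histone neighbourhoods 46 had fewer peaks, but 20 with scores of at least 100. All 21 clustered protocadherin neighbourhoods had more peaks (129 against 192 in sum), but 0 had more when neighbouring peaks were merged. The Hox gene Hoxc6 was gained (59.2, rank 16535), 128703 bp from any DMSO peak, and that 1 peak accounts for all 7 Hox neighbourhoods with more peaks.

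Counted by peak, 14937 of the 18794 equal-number DMSO peaks overlapped an UNC0638 peak (79.5%) and 3857 did not (20.5%). Kept peaks were promoter peaks in 59.1% and had a median distance of 479 bp to a TSS and a width of 1284 bp. Lost peaks were promoter peaks in 36.5%, lay 4157 bp from a TSS and were 842 bp wide. Of the UNC0638 peaks, 1656 overlapped no DMSO peak at all (8.81%), and 19.7% of these were promoter peaks, at 7670 bp from a TSS. Peaks that came or went therefore lay further from promoters than peaks that stayed, but kept DMSO peaks also ranked higher than lost ones. Their median scores were 358 and 140. In the lower-ranking part of the DMSO list, 2425 kept peaks were at promoters and 3315 were distal, against 1300 and 2356 lost ones. In that part of the UNC0638 list it was 2768 and 3301 kept peaks, against 317 and 1308 gained with no DMSO peak. Widths were not matched for rank. On the X chromosome 84 of 295 peaks were lost (28.5%, 23.6 to 33.9%) and on chromosome 19 115 of 879 (13.1%, 11 to 15.5%).

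The 500 bases around the middle of promoter peaks had a median GC content of 63.2% in kept DMSO peaks, 58.2% in lost ones and 54.2% in gained ones with no DMSO peak. The ratio of CpGs observed to those expected from base composition was 0.774, 0.617 and 0.330. Within the lower-ranking part of the lists, kept and lost promoter peaks came closer (59.8% and 58.2% GC), while gained peaks stayed at 54.2%. Distal peaks differed by less, at 50% kept, 49.2% lost and 49.4% gained. Motifs were searched as exact letters on both strands, and a match is not evidence of binding. The AP-1 letters TGANTCA occurred in 8.91% of kept (7.84 to 10.1%), 10.0% of lost (8.49 to 11.8%) and 13.9% of gained (10.5 to 18.1%) promoter peaks of the lower-ranking part. In UNC0638 peaks kept in that part it was 9.21% (8.19 to 10.3%). The ETS letters CCGGAAG occurred in 13.7% of kept (12.4 to 15.1%) and 10.9% of lost (9.34 to 12.7%) DMSO promoter peaks of that part, and in 14.2% of kept (12.9 to 15.5%) and 10.1% of gained (7.24 to 13.9%) UNC0638 ones. The GC-rich SP/KLF letters GGGCGGGG occurred in 20.4% of kept (18.8 to 22.0%) and 20.1% of lost (18.0 to 22.3%) DMSO peaks, and in 21.03% of kept (19.5 to 22.6%) and 14.2% of gained (10.8 to 18.5%) UNC0638 peaks of that part, the gained ones being lower in GC. The NRF1 motif occurred in 4.91% of kept (4.12 to 5.84%) and 3.85% of lost (2.93 to 5.03%) DMSO peaks, and in 5.06% of kept (4.30 to 5.94%) and 3.79% of gained (2.18 to 6.50%) UNC0638 peaks of that part. In distal peaks TGANTCA was found in 26.1% of kept, 24.3% of lost and 24.8% of gained peaks. Of all RefSeq promoter windows 7.05% held TGANTCA, Mmp13 and Fas among those printed above.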

How the data were processed

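The authors immunoprecipitated H3K27ac chromatin of Tnm2 and CK1750 cells with antibody Abcam ab4729 and sequenced it. Per the labels and methods, Bowtie2 placed the reads on mm10 and MACS 1.4.2 gave the peaks, with 1e-05 as the P cutoff. The submitters' processing notes also name SAMtools. Whether input DNA was the control is not given in the sources used here. The deposited score of each peak is on the -10 log10 scale of its P value, and the cutoff equals a score of 50. Scores piled up at 3100 (169 Tnm2 DMSO peaks and 10 with UNC0638).

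Samples were grouped by line, treatment and mark as labelled. Because each group has 1 merged list, no test and no p-value was computed, and depth is unknown. Peaks were checked against chromosome lengths, and 0 ended beyond 1 of 21 chromosomes. Genes came from GENCODE M21. Promoter classes, rank shifts (called at 10 points) and neighbourhood counts were computed as the report defines them, for all 21911 protein-coding genes and 48 gene lists. Near-identical copies were alignments of at least 500 of 1000 bases around the peak at 95% identity (minimap2 2.31-r1302). Of 18 motifs searched, 4 were given Wilson intervals and are described. On simulated lists the classes of 600 kept, 200 lost and 100 gained promoters were all recovered. These promoters lay far from any other and had strong peaks at or near the TSS, and gains were set against the full DMSO list. The simulation thus checks the code and does not cover shared or weak peaks.

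Genes were named by rule. These were the 10 lost and the 10 gained promoters with the highest scores, the 6 largest rank shifts each way among promoters with a mean percentile of at least 50, the 5 largest neighbourhood differences each way, up to 4 lost and 4 gained members and the largest shifts of each list, and the study's own genes. Predicted genes were not named, and some genes that the rule gives are not reported here. The members and lists were chosen with earlier results of these data known. Alternatives were a promoter window of 2.5 kb, scores of at least 100, the most upstream TSS, merged peaks, full lists, flanks of 20 and 100 kb, peaks within 1 kb counted as shared, and whole peaks for sequence. Scripts ran under Python 3.11.15 with pandas 2.3.3, numpy 2.4.6 and scipy 1.17.1.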

Additional observations from a re-analysis of the deposited data

Results flagged for a closer look

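For 18 named genes the promoter rank shift with UNC0638 was at least 10 points in both lines but in opposite directions. Named genes include, by rule, those with the largest Tnm2 shifts. Opposite shifts were also frequent over all 8313 genes kept in both lines. There 259 went down in Tnm2 and up in CK1750 and 255 the reverse, while 277 went down and 300 up in both. Each line had 1 list per treatment, so the difference between lines was not tested. The first value of each gene is the shift in Tnm2 and the second that in CK1750, in percentile points. Lower in Tnm2 and higher in CK1750 were Maml2 (-60.7 and 15.0), Ifit2 (-43.8 and 11.1), Zfp958 (-39.6 and 24.8), Ido2 (-36.8 and 30.4), F11r (-31.8 and 31.5), Ctsl (-23.3 and 10.9), Cxcl16 (-18.2 and 16.5), U2af1l4 (-15.5 and 29.8) and Cdt1 (-12.9 and 14.2). Higher in Tnm2 and lower in CK1750 were Zfp608 (38.6 and -14.2), Esrp2 (34.1 and -12.4), Ifngr2 (30.0 and -13.7), Mrpl14 (29.7 and -14.1), Zfp931 (23.9 and -11.9), Dll1 (21.3 and -16.7), Hist1h3d (15.9 and -26.7), Psmc4 (14.2 and -11.6) and Notch4 (12.4 and -19.4). With a promoter window of 2.5 kb the Tnm2 shift of Zfp608 was -12.1, no longer opposite to that in CK1750. They include both a coactivator (Maml2) and a ligand (Dll1) of Notch, and both an interferon-induced gene (Ifit2) and an interferon receptor (Ifngr2), with opposite signs in Tnm2.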

How the results depend on the processing

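No paired analysis was possible because each treatment has 1 merged list and no value per replicate, and no replicate could be left out for the same reason. With full lists 1869 promoters were lost and 132 gained, and 11338 neighbourhoods had fewer and 764 more peaks. In these full lists the neighbourhood difference was -5 for Myof, -7 for Pfdn1, -2 for Atp6v0a1 and -3 for Maml2, and with scores of at least 100 it was 2 for Smurf1. With a promoter window of 2.5 kb the rank shift was -12.1 for Zfp608 and 0.11 for Plxnb2 (0.17 with merged peaks), and with the most upstream TSS it was -22.8 for Synj2, 7.50 for Srebf1 and -14.8 for Psmb1. Where a peak within 1 kb counted as shared, kept peaks were promoter peaks in 57.8%, 1259 bp wide and 545 bp from a TSS, and 9.90% of chromosome 19 peaks were lost. Over whole peaks the median GC content was 57.3% in kept and 56.3% in lost DMSO promoter peaks, and 58.0% in kept UNC0638 ones and 55.0% in those gained over a weaker DMSO peak, with CpG ratios of 0.699 (kept DMSO) and 0.709 (kept UNC0638). The cause was not tested. Under the other settings 41 values that answer a comparison stayed within their margin. The other values include lost and gained counts of the gene lists as well as values for single genes. Of these, 847 stayed, 172 moved, 9 lost their call and 11 changed sign. Values for single genes were not counted apart from list counts. A list ends at a score, so a weak peak can leave it through a small change in depth, and depth is unknown.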
